A study of Mus musculus with 7 samples.

Results

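The genes described here are those whose RNA was lower in every primary EMT6-PTR tumor than in every EMT6-P tumor. Of 53465 genes in the table, 12129 had a mean of at least 3 CPM (a gene's estimated count as a share of the library's total, scaled to 1000000) in EMT6-P, and 394 of these were chosen by 2 further measured values. The highest CPM of the 3 EMT6-PTR tumors had to lie below the lowest CPM of the 3 EMT6-P tumors, and the EMT6-PTR mean had to be at most 2/3 of the EMT6-P mean. The members are thus 3.25% of the genes at that CPM floor, and the mirrored rule gave 276 genes higher in every EMT6-PTR tumor. Because these values chose the members, the difference between EMT6-P and EMT6-PTR is given below as a description without a test. A library of a metastasis of the resistant variant took no part in the choice.

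The tumors grew from EMT6, an established line of mouse mammary carcinoma, after 500000 cells had been placed into a mammary fat pad of female Balb/c mice aged 6 to 8 weeks. EMT6-P (parental) tumors grew under IgG control antibody and EMT6-PTR tumors under αPD-L1 (Clone 80), each at 250 μg per mouse every 3 days until endpoint, and the resistant tumors were ones that resumed growth after a delay. The sample labels write PDR for the resistant group and give 3 replicates of each group and 1 metastasis, with no site for the latter. The paper names the sequenced material as tumor tissues with n = 3, so each replicate is called a tumor here, although they may not be separate tumors. PTR is a variant selected in treated mice, so that the group joins the antibody and the selection, and these cannot be told apart. The labels number the replicates but tie none to a named mouse, so the p-values below measure only the spread between these samples, which may be technical.

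PD-L1 on tumor and myeloid cells binds PD-1 on T cells and restrains them, and αPD-L1 antibodies block this contact. Among the genes of every dividing cell, those for DNA replication are transcribed mainly around S phase and those for mitosis in G2 and M phase, so their level in bulk RNA follows the share of cells in cycle. Genes for ribosomal proteins, actin, tubulin and S100 proteins are expressed at high levels in cultured carcinoma cells and have short transcripts. In RNA from whole tumors, fewer cells of a type and less RNA per cell cannot be told apart.

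Total estimated counts were 20430110 to 25213472 per library. EMT6-PTR replicate 2 stood apart in that the single gene CT010467.1 took 13.8% of its counts, against 0.433% to 1.35% in the other 6 libraries, which lowers every other CPM of that tumor. The median gene at the CPM floor lay at 84.7% of the EMT6-P mean in this tumor, at 105% and 97.0% in replicates 1 and 3, and at 94.3% in the metastasis. On library sizes without this gene, 291 of the 394 members still met the rule, and on upper-quartile library sizes 347 did. EMT6-PTR replicate 3 stood apart in the sum of epithelial markers (Epcam, Krt8, Krt18, Cdh1 and Krt19). It was 604 CPM, against 2111 to 2352 CPM in EMT6-P, 2249 and 1926 CPM in EMT6-PTR replicates 1 and 2 and 1343 CPM in the metastasis. Krt8 and Krt18 made up most of this sum, at 513 and 74.9 CPM in replicate 3. There Cdh1 (3.45 CPM) was below EMT6-P, while Epcam (8.96 CPM) and Krt19 (3.77 CPM) lay within the EMT6-P range. In the metastasis Epcam, Cdh1 and Krt19 were above every primary tumor, at 53.1, 141 and 175 CPM. Fibroblast markers (Col1a1, Col1a2, Dcn, Lum, Pdgfra and Pdpn) summed to 12013 CPM in EMT6-PTR replicate 3. The sum was 4909 to 6559 CPM in EMT6-P, 6146 and 6336 CPM in EMT6-PTR replicates 1 and 2 and 6701 CPM in the metastasis. In replicate 3 Col1a2, Dcn, Lum and Pdgfra were above every EMT6-P tumor. Col1a1 (2796 CPM) was within the EMT6-P range and Pdpn (39.9 CPM) below it. None of the epithelial or fibroblast markers was a member. The part of these marker levels in the results was not tested.

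Together the members held 5.43%, 5.21% and 5.32% of the library in EMT6-P replicates 1 to 3, against 4.12%, 3.03% and 2.44% in EMT6-PTR replicates 1 to 3. The median member lay at 75.2%, 54.7% and 46.8% of its EMT6-P mean in these 3 tumors. The set as a whole was thus closest to EMT6-P in replicate 1. Replicate 3 was the lowest tumor for 236 members, replicate 2 for 147 and replicate 1 for 11, while replicate 1 was the highest of the 3 for 306. The share of CT010467.1 in replicate 2, which lowers its other CPM, enters these ranks. The EMT6-PTR mean was between 11.9% and 66.6% of the EMT6-P mean, with a median of 60.1%. It was at most 50% for 71 members and at most 25% for 8. For 73 members the highest EMT6-PTR tumor stood at over 95% of the lowest EMT6-P tumor, so that the groups were apart by little. Without replicate 1 the rule was met by 1618 genes, 391 of them members, without replicate 2 by 375 genes (291 members), without replicate 3 by 534 genes (215 members) and without EMT6-P replicate 2 by 593 genes (376 members).

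**Figure D1:**
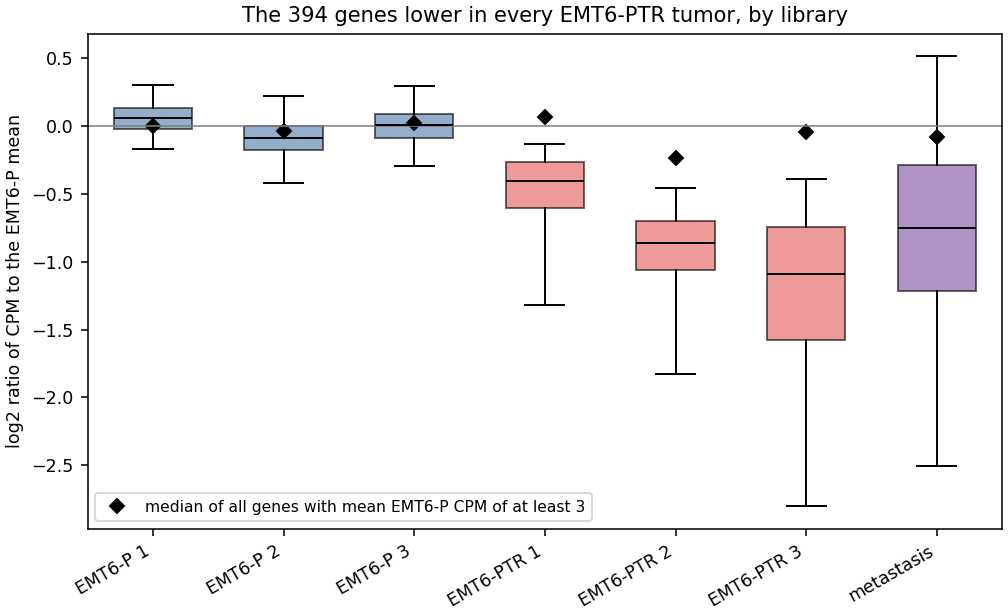
Log2 ratio of CPM to the EMT6-P mean for the 394 members in each of the 7 libraries. Boxes span the quartiles with the median as a line, whiskers reach the 5th and 95th percentiles, and diamonds mark the median of all 12129 genes at the CPM floor. The member medians were -0.41, -0.87 and -1.09 in EMT6-PTR replicates 1 to 3 and -0.75 in the metastasis, where the box is widest.

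Across all 15645 genes that passed the filter on low counts, edgeR's quasi-likelihood test called none lower in EMT6-PTR (0.0%), limma-voom called none (0.0%) and DESeq2 called 143 of the 13694 to which it gave an adjusted p (1.04%). All 394 members were among the genes tested. Of them, 0 were called by edgeR and limma-voom and 86 by DESeq2. Without adjustment, 283 members had an edgeR p under 0.05, where 5.57% of all genes were lower by that measure. The rule used the same contrast, so these counts add nothing to it. In the edgeR fit the median log2 fold change of the members was -0.71, beside 0.03 for all genes tested.

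The members with the widest gap between the groups were expressed at low to moderate levels and have varied functions. Dynap, which encodes a membrane protein linked to survival signaling, stood at 46.0, 28.6 and 30.4 CPM in EMT6-P tumors and 8.12, 4.89 and 1.15 CPM in EMT6-PTR tumors. Its highest EMT6-PTR value was 28.4% of the lowest EMT6-P value, the smallest such share of any member. Ngef, a guanine nucleotide exchange factor on chromosome 1 from 87476834 to 87573870 (GRCm38), stood at 6.64, 4.06 and 11.1 CPM against 1.03, 0.636 and 1.27 CPM. On average both were about as far below, at 13.5% and 13.4% of the EMT6-P mean. Vtcn1 (chromosome 3 from 100825459 to 100896922) encodes B7-H4, an inhibitory ligand of the B7 family to which PD-L1 also belongs. It stood at 5.32, 6.75 and 5.29 CPM in EMT6-P, a narrow range, and at 2.10, 1.03 and 1.35 CPM in EMT6-PTR. It was the one member among 13 checkpoint ligands and receptors at the CPM floor. Lmo1 (chromosome 7 from 109138572 to 109175207), a LIM-domain transcriptional cofactor, stood at 18.8, 15.5 and 16.9 CPM against 6.25, 2.89 and 6.74 CPM. Mgl2, a C-type lectin of macrophages and dendritic cells, stood at 5.14, 6.36 and 5.08 CPM against 2.70, 2.30 and 0.407 CPM, with replicate 3 the lowest.

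Col4a5 (chromosome X from 141475385 to 141689234), a chain of basement membrane collagen IV, stood at 6.10, 2.42 and 2.23 CPM in EMT6-P and 0.746, 0.979 and 0.159 CPM in EMT6-PTR. The EMT6-P tumors themselves differed, with replicate 1 above the others. The remaining members with the widest gaps were Gm47750, a processed pseudogene with 0 counts in EMT6-PTR replicate 1, and the antisense transcripts Gm12744, Gm44777 and Gm17134, each of which overlaps a gene on the opposite strand. Gm47750 stood at 4.88, 3.02 and 5.52 CPM in EMT6-P and 0, 1.21 and 1.10 CPM in EMT6-PTR. Gm12744 stood at 21.8, 10.4 and 26.3 CPM against 5.43, 4.28 and 3.35 CPM, and Gm44777 at 10.6, 6.63 and 10.7 CPM against 3.31, 2.36 and 2.70 CPM. In all 3 antisense genes EMT6-P replicate 2 was the lowest EMT6-P tumor. Gm17134 stood at 9.42, 4.79 and 12.3 CPM in EMT6-P and 0.280, 0.320 and 2.55 CPM in EMT6-PTR, the lowest mean ratio of all members at 11.9%. The libraries were stranded, but the sources used here do not say that counting used the strand, so reads of an antisense gene and its partner may be mixed.

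**Figure D2:**
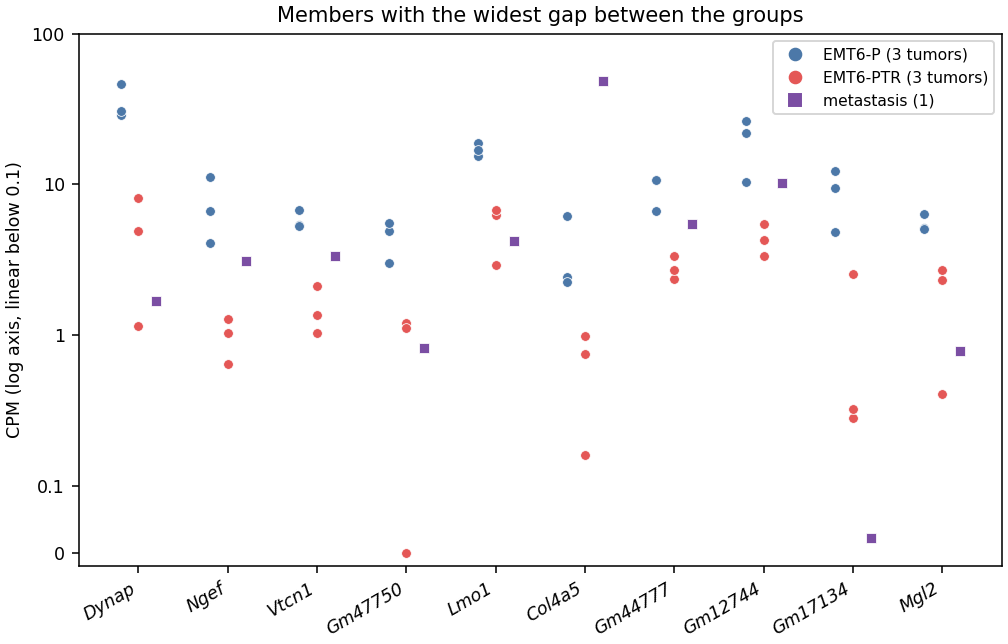
CPM of the 10 members with the smallest ratio of highest EMT6-PTR to lowest EMT6-P value, on a log axis that is linear below 0.1. Circles are single tumors, blue for EMT6-P and red for EMT6-PTR, and squares are the single metastasis, which for Col4a5 stood at 48.1 CPM, above every primary tumor.

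The members with the highest CPM, which does not correct for transcript length, encode parts of the actin cytoskeleton, ribosomal proteins, calcium-binding or sugar-binding proteins and a translation elongation factor subunit. Actg1, cytoplasmic gamma-actin (chromosome 11 from 120345690 to 120348542), stood at 5458, 6069 and 5413 CPM in EMT6-P and 4958, 3755 and 1315 CPM in EMT6-PTR. Replicate 3 was far below the other EMT6-PTR tumors, and replicate 1 was close to the EMT6-P range. Cfl1, cofilin, which severs actin filaments, stood at 1464, 1538 and 1643 CPM against 1249.5, 877 and 666 CPM. Tmsb4x, thymosin beta 4, which binds actin monomers, stood at 1103, 961 and 1143 CPM against 886, 645 and 419 CPM. The same order of the 3 EMT6-PTR tumors held for both. The myosin light chains Myl6 and Myl12a reached 533 and 329 CPM in replicate 3, from EMT6-P means of 1073 ± 90.9 and 1035 ± 48.5 CPM (SD, n = 3). In all, 9 of 48 actin cytoskeleton genes at the CPM floor were members, the others being Pfn1, Arpc1b, Tagln2 and Coro1b. The whole list had a median EMT6-PTR level of 76.9% of EMT6-P, beside 97.7% for all genes at the floor.

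Lgals1, galectin-1, a secreted lectin that binds sugars on T cells and matrix, stood at 2684, 2224 and 2708 CPM in EMT6-P and 1748, 1363 and 576 CPM in EMT6-PTR. Its mean was 2.07-fold lower in EMT6-PTR, and the metastasis stood at 893 CPM, within the EMT6-PTR range. Lgals1 was the one member among 15 annexins and galectins. Eef1g, a subunit of the translation elongation factor 1 complex, stood at 1302, 1313 and 1242 CPM against 1099, 694 and 432 CPM, and at 415 CPM in the metastasis. Of 14 tubulins, 5 were members, namely Tuba1a, Tuba1c, Tubb4b, Tubb6 and Tubb2b. Tubb6 was unequal among the EMT6-PTR tumors, with 226, 199 and 219 CPM in EMT6-P and 186, 196 and 34.6 CPM in EMT6-PTR. Replicates 1 and 2 lay just under the EMT6-P tumors and replicate 3 far below. Tuba1a stood at 1017, 867 and 1176 CPM against 856, 691 and 354 CPM, Tuba1c at 437, 399.8 and 402 CPM against 388, 253 and 106 CPM and Tubb4b at 299, 273 and 289 CPM against 259.5, 205 and 97.9 CPM. In the metastasis Tubb4b stood at 344 CPM, above every EMT6-P tumor. All 5 tubulins were lowest in replicate 3, where the median of the 14 tubulins lay at -1.54 on the log2 scale relative to the EMT6-P mean, against -0.12 and -0.52 in replicates 1 and 2.

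S100 proteins, small calcium-binding proteins, held the largest share of members among the lists with at least 10 genes at the floor, with 5 of 12. S100a11 stood at 999, 1088 and 1105 CPM in EMT6-P and 767, 376 and 472 CPM in EMT6-PTR, and S100a10, which binds annexin A2 at the membrane, at 639.9, 575 and 657 CPM against 387, 282 and 389.6 CPM. Both were lowest in replicate 2. S100a16 (93.5, 57.3 and 103 CPM in EMT6-PTR) and S100a13 (31.3, 17.96 and 42.2 CPM) also had their lowest value in replicate 2, while S100a7a, at only 3.52, 3.65 and 1.99 CPM in EMT6-P, was lowest in replicate 3. In the metastasis, S100a11, S100a10, S100a16 and S100a13 were at 86.7%, 96.7%, 109% and 124% of the EMT6-P mean. The 12 S100 genes have a median transcript length of 700 bases.

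On whole-library CPM, replicate 2 was most often lowest among ribosomal protein members, for all 6 cytosolic and 7 of 11 mitochondrial ones. CT010467.1 takes 13.8% of the counts of replicate 2 and lowers its other CPM, and the ranks were not counted again without it. Mrpl12 and Mrpl52 stood in replicate 2 at 98.1% and 97.3% of the next tumor, so their rank rests on this scaling. Of 85 cytosolic ribosomal protein genes, 6 were members, among them Rpl41, Rps21, Rpl22l1, Rps27l and Rps3a3, although 45 were lower in every EMT6-PTR tumor, where 11.4% of all genes at the floor were. Most of these had an EMT6-PTR mean above the 2/3 limit, and the list as a whole had a median of 74.5% of EMT6-P. Rpl41 stood at 1757, 1855 and 1508 CPM against 1143, 911 and 1324 CPM, with 1372 CPM in the metastasis. Rps21 (579.9, 506 and 494 CPM against 326, 266 and 408 CPM) and Rpl22l1 (189, 158 and 137 CPM against 105, 79.6 and 96.5 CPM) had the same lowest tumor. In the metastasis, the medians of the cytosolic and mitochondrial lists lay at 80.4% and 86.0% of EMT6-P.

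Of 78 mitochondrial ribosomal protein genes, 11 were members, and 77 had a lower mean in EMT6-PTR. Mrpl12 stood at 90.0, 69.6 and 71.8 CPM against 63.4, 42.2 and 43.0 CPM and Mrpl52 at 71.1, 65.7 and 67.2 CPM against 51.6, 36.6 and 37.6 CPM. The difference was of similar size in both. Mrpl20 stood at 59.7, 55.8 and 67.3 CPM against 45.2, 33.3 and 41.6 CPM, and Mrpl24 at 62.5, 59.4 and 64.6 CPM against 59.2, 37.6 and 23.9 CPM, where replicate 1 reached almost the EMT6-P range. Mrps6 was lowest of the 11 relative to EMT6-P, at 51.7%. Mitochondrial import was represented by Timm17a, Timm13 and Tomm7 (3 of 23 genes), with Timm13 at 75.7, 68.3 and 65.7 CPM against 54.1, 37.0 and 38.9 CPM. Among respiratory chain subunits, members were Ndufc1 (1 of 37 complex I genes), Cox8a and Cox7a2 (2 of 21 genes of complexes III and IV) and Atp5g3 and Atp5j2 (2 of 16 ATP synthase genes).

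Spliceosomal small nuclear ribonucleoproteins gave 6 members of 47 (Snrpe, Snrpf, Snrpd1, Snrpd2, Lsm4 and Lsm6), which form the rings around spliceosomal RNAs. Snrpe stood at 105, 93.0 and 98.5 CPM against 69.9, 56.0 and 61.7 CPM and Snrpd2 at 68.2, 71.7 and 65.2 CPM against 47.8, 34.5 and 48.5 CPM. The EMT6-PTR values of Snrpe lay within a narrow range. Snrpf stood at 86.7, 84.4 and 86.7 CPM against 71.7, 44.2 and 43.6 CPM and Snrpd1 at 77.7, 71.1 and 91.5 CPM against 64.5, 58.5 and 36.3 CPM, with replicate 3 the lowest for both. Proteasome genes gave 4 of 46: the proteasome subunit Psmb5, the assembly factor Psmg3, and Psmb10 and Psme2, which belong to the immunoproteasome and the interferon-induced activator. Psmb10 stood at 96.2, 75.03 and 81.2 CPM against 70.4, 49.9 and 33.6 CPM, and Psme2 at 187, 155 and 176 CPM against 127, 133 and 83.1 CPM. Psmb5 stood at 83.9, 76.8 and 82.0 CPM against 60.5, 43.6 and 54.4 CPM and at 95.1 CPM in the metastasis, above every EMT6-P tumor, whereas Psmg3 stood at 23.4, 20.2 and 21.2 CPM, 18.1, 11.6 and 10.4 CPM and 14.7 CPM. None of 44 interferon-stimulated genes at the floor was a member, where 3.25% of all genes at the floor were. At that share the list, which does not hold Psmb10 or Psme2, is too small for this to set it apart. This list's median in EMT6-PTR was 129% of EMT6-P. By tumor its median was -0.04, 0.87 and 0.11 on the log2 scale in replicates 1 to 3, so that replicate 2 alone was clearly above EMT6-P.

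DNA replication genes gave 9 members of 38, among them Dut, Pcna, Tk1, Rfc2, Rfc5, Tyms, Gins4 and Gins1, and mitosis genes 6 of 40 (Birc5, Ccnb2, Cenpa, Aurkb, Pbk and Spc25). Tk1, thymidine kinase, stood at 112, 104 and 101 CPM in EMT6-P and 94.8, 51.5 and 12.6 CPM in EMT6-PTR. Pcna, the sliding clamp of DNA polymerase, stood at 199.7, 198 and 208 CPM against 187, 136 and 68.4 CPM. Birc5, survivin, a subunit of the chromosomal passenger complex, stood at 95.3, 83.6 and 92.1 CPM against 82.3, 56.1 and 10.5 CPM. In each of these, replicate 1 was just below the EMT6-P tumors, replicate 2 lower and replicate 3 lowest. Ccnb2, a mitotic cyclin, stood at 74.7, 72.8 and 81.4 CPM against 68.5, 51.6 and 15.0 CPM, and Cenpa, the centromeric histone H3 variant, at 65.8, 65.1 and 69.7 CPM against 62.6, 34.9 and 9.003 CPM. Dut, which hydrolyses dUTP, stood at 316, 286 and 299.6 CPM against 224, 178 and 125 CPM and was clear of EMT6-P in replicate 1 too. Rfc2, a subunit of the clamp loader, stood at 53.7, 56.5 and 56.8 CPM against 51.0, 31.8 and 23.2 CPM, and the mitotic kinase Aurkb at 42.8, 41.6 and 41.0 CPM against 39.3, 31.2 and 5.91 CPM. All 15 members of both lists were lowest in replicate 3.

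Over the whole lists, replicate 1 differed from the other EMT6-PTR tumors. Of the 40 mitosis genes, 6 were below every EMT6-P tumor in replicate 1 (25.5% of all genes at the floor were), 31 in replicate 2 (59.3%), 40 in replicate 3 (44.4%) and 40 in the metastasis (46.5%). Their median relative to EMT6-P was 0.16 in replicate 1, -0.23 in replicate 2, -2.84 in replicate 3 and -2.73 in the metastasis on the log2 scale. Of the 38 DNA replication genes, 13, 37 and 36 were below every EMT6-P tumor in replicates 1 to 3, and 35 in the metastasis. The DNA replication medians were 0.06, -0.53 and -1.55 in replicates 1 to 3 and -1.48 in the metastasis. Both lists were thus near EMT6-P in replicate 1, below it in replicate 2 and furthest below it in replicate 3 and the metastasis. In the metastasis the 15 members of both lists were at 10.1% (Spc25) to 69.5% (Gins4) of the EMT6-P mean.

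**Figure D3:**
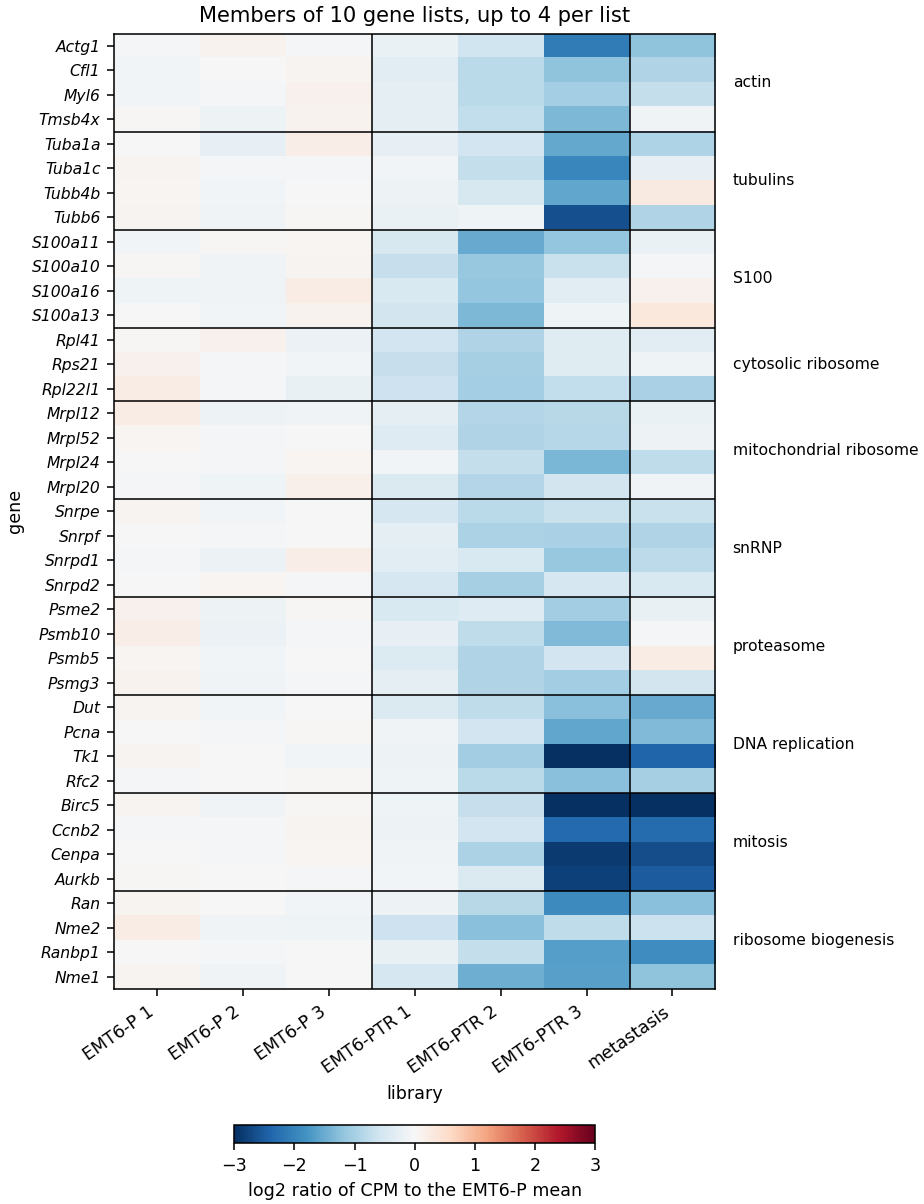
Log2 ratio of CPM to the EMT6-P mean for members of 10 gene lists, up to 4 per list by EMT6-P level, in the 7 libraries. Blue is lower and red higher, and the color scale stops at -3 and 3. Mitosis members are darkest in EMT6-PTR replicate 3 and the metastasis. S100 and cytosolic ribosomal members are darkest in replicate 2, whose CPM is lowered by CT010467.1, and paler in the metastasis.

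Among genes of ribosome biogenesis and MYC targets, replicate 3 was the lowest tumor for 3 of 5 members. Ran, the GTPase of nuclear transport, stood at 654, 611 and 587 CPM against 557, 348 and 165 CPM, and its binding protein Ranbp1 at 228, 219 and 226 CPM against 193, 136 and 71.9 CPM. The nucleoside diphosphate kinases Nme1 and Nme2 stood at 145, 74.4 and 67.1 CPM and 245, 158 and 221 CPM in EMT6-PTR, from means of 206 ± 14.5 and 376 ± 52.3 CPM (SD, n = 3) in EMT6-P. Nme1 was the lower relative to EMT6-P, at 46.3%. With Nop10, these were the 5 members among 40 genes of ribosome biogenesis and MYC targets. Of 3 members among 38 glutathione and peroxiredoxin enzymes, Gsto1, an omega-class glutathione transferase, stood at 647, 622 and 663 CPM against 410.2, 360.4 and 245 CPM, and Gsto2 and Gpx1 were the others. Gpx1, glutathione peroxidase, stood at 483, 412 and 442 CPM against 330.3, 255 and 305 CPM, and at 458 CPM in the metastasis, within the EMT6-P range. Arhgap22, a GTPase-activating protein, stood at 63.8, 67.7 and 56.2 CPM against 44.6, 51.4 and 14.5 CPM. Arhgdia, a GDP dissociation inhibitor, stood at 926, 921 and 892 CPM against 754, 575 and 488 CPM, and the small GTPase Rhod at 47.0, 47.2 and 60.6 CPM against 31.6, 29.1 and 28.3 CPM. The Rhod values of the 3 EMT6-PTR tumors were nearly equal. Ube2s and Ube2t, ubiquitin-conjugating enzymes, were at 187, 137 and 56.6 and 8.16, 6.56 and 2.14 CPM in EMT6-PTR, from means of 195 and 10.1 CPM.

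Promoters of members are shown for 2 sets. Of the 394 members, 243 matched an entry of the RefSeq promoter table (GRCm38.p6), as did 8568 of the genes at the floor. The 250 bases before the start were searched on both strands. This start is that of the RefSeq entry, at most 5000 bases from the 5′ end of the gene's GENCODE span. The 2 agreed for 2837 of the 8568 genes, so other windows can lie partly or wholly inside the GENCODE span. This holds for the whole printed stretch of Myl12a and for the marked motifs of Cenpa and Pcna below. TGANTCA, with any base at N, was present in 22 of 243 members (9.05%) and in 4.12% of all 8568 promoters, and TATAAA in 9.47% against 6.20%. This form is looser than the AP-1 site TGACTCA or TGAGTCA, so its count also holds other sites. The other motifs were about as frequent in members as in all promoters or less so. CCAAT was in 37.9% against 36.8%, TTTGAA in 10.3% against 9.99%, the E2F forms TTTGGCGC, TTTCCCGC or TTTCGCGC in 4.12% against 3.30%, CACGTG in 9.88% against 8.70%, CCGGAAG in 12.8% against 15.2%, GGGCGG in 56.0% against 61.5% and TGACGTCA in 0.823% against 2.85%. None of these motifs contains another. A match is only a description of letters in this window.

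The first set, the named members with TGANTCA in the last 150 bases before the start, is printed 5′ to 3′ on the gene's strand with the motif in capitals. S100a11 (chr3:93520346-93520495, plus strand) holds it at both positions -136 and -38, Myl12a (chr17:71002534-71002683, minus strand) at -137 and Ranbp1 (chr16:18248695-18248844, minus strand) at -51, counted from the base before the start as -1. The stretch in Ranbp1 reads TGAATCA, which is not the AP-1 site, whereas those in S100a11 and Myl12a read TGAGTCA.
S100a11: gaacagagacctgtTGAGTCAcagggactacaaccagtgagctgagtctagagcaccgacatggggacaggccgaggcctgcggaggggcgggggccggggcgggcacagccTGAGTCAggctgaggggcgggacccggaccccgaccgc
Myl12a: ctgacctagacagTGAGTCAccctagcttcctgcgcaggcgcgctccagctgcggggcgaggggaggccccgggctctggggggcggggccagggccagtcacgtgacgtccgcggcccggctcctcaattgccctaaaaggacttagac
Ranbp1: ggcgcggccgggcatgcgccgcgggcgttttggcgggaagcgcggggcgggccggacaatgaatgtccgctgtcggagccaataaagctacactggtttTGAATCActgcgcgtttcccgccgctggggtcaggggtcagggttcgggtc

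The second set shows proliferation members with CCAAT, or its complement ATTGG, in capitals. CCAAT was present in 4 of 9 promoters of the mitosis and DNA replication members and in 71.9% of the 64 promoters of both whole lists. Ccnb2 (chr9:70421555-70421704, minus strand) holds 3 copies at -87, -54 and -21, Cenpa (chr5:30666736-30666885, plus strand) 2 at -109 and -86, and Pcna (chr2:132253181-132253330, minus strand) 1 at -87.
Ccnb2: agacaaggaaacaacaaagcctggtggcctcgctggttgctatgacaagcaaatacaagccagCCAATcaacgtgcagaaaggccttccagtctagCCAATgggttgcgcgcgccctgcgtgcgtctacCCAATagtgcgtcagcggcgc
Cenpa: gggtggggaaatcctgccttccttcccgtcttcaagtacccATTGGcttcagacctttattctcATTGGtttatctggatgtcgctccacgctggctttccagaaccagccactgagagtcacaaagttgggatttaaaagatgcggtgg
Pcna: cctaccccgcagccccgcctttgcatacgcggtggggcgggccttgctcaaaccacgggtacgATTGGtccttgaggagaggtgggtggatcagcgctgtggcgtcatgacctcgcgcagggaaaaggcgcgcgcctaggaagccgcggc

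Several gene groups held few or no members. There were none among 29 genes of glycolysis and hypoxia, 32 of the lysosome, 30 NF-kB targets, 30 of TGF-beta and BMP signaling, 34 aminoacyl-tRNA synthetases, 64 Rab and Arf-type GTPases, 19 integrins, 19 p53 targets, 18 genes of the integrated stress response and 13 of MHC class II presentation. Solute carriers gave 2 of 178 (Slc25a5 and Slc18a2) and Zfp zinc finger genes 2 of 262 (Zfp703 and Zfp575). The Zfp genes had a median of 116% of EMT6-P and a median transcript length of 3730.5 bases. These shares can be read against the 3.25% of all genes at the floor. At that share most lists with none are too small for this to set them apart. In EMT6-PTR replicate 3, 44.4% of all genes at the floor were below every EMT6-P tumor. So were 17 of 18 integrated stress response genes, 25 of 30 NF-kB targets and 21 of 29 glycolysis and hypoxia genes. It held for 28 of 34 synthetases, 15 of 19 integrins and 15 of 19 p53 targets. It held for 12 of 32 lysosome, 13 of 30 TGF-beta and BMP, 22 of 64 GTPase and 4 of 13 MHC class II genes.

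The study listed 76 secretory genes as decreased in these same tumors (its preliminary PTIS-DOWN list), so their direction here is not independent evidence. Of the 54 at the CPM floor, 11 were members (20.4%, where 3.25% of all genes at the floor were). They were S100a11, Cfp, Pf4, Pcolce2, Il1rl1, Fabp5, Mfap2, Mmp23, Adamts16, Col4a5 and S100a7a. None of the 4 genes of the study's final PTIS-DOWN signature (Icam1, Csf1, Col18a1 and Havcr1) was among them. Pf4, a chemokine of platelets and macrophages, stood at 38.1, 46.1 and 21.2 CPM in EMT6-P and 14.0, 8.71 and 5.24 CPM in EMT6-PTR. Cfp, properdin of the complement system, stood at 85.0, 83.9 and 70.0 CPM against 59.3, 48.9 and 15.3 CPM. Il1rl1, the receptor of interleukin-33, stood at 16.5, 18.6 and 19.6 CPM against 14.7, 8.81 and 2.82 CPM. The EMT6-PTR tumors had the same order in all 3. Pcolce2, an enhancer of procollagen processing, stood at 21.4, 13.0 and 8.21 CPM and Adamts16, a metalloproteinase, at 2.94, 0.930 and 0.278 CPM in EMT6-PTR, from means of 30.02 and 4.88 CPM. Fabp5 stood at 12.3, 15.2 and 10.8 CPM against 8.398, 6.34 and 3.23 CPM, Mfap2, a microfibril protein, at 4.79, 5.79 and 7.47 CPM against 4.34, 3.96 and 1.03 CPM and Mmp23 at 4.44, 4.79 and 6.06 CPM against 4.20, 4.06 and 0.714 CPM. For Mfap2 and Mmp23 replicates 1 and 2 were close to EMT6-P and replicate 3 far below. None of the 4 genes of the 5-gene PTIS signature at the floor was a member.

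Pf4 and Mgl2 are expressed by leukocytes, so the marker lists are given beside them. The 8 macrophage markers (Adgre1, Cd68, Csf1r, C1qa, C1qb, C1qc, Mrc1 and Cd163) summed to 1431 to 1779 CPM in EMT6-P and 1345 to 1888 CPM in EMT6-PTR, ranges that overlap, and none of them was a member. The 6 platelet markers summed to 36.5 to 57.3 CPM in EMT6-P and 17.9 to 46.6 CPM in EMT6-PTR, with Pf4 the one member among them. T cell markers summed to 3.19 to 4.93 CPM in EMT6-P and 4.68 to 14.0 CPM in EMT6-PTR. Skeletal muscle markers summed to 9.08 to 622 CPM in EMT6-P and reached 3659 CPM in EMT6-PTR replicate 1, while keratinocyte markers summed to 318 to 580 CPM in EMT6-P and 20.6 CPM in replicate 3. None of the muscle or keratinocyte markers was a member, and the part of these differences in the results was not tested.

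The members' transcripts were short. The longest annotated transcript of a member had a median of 1350.5 bases (quartiles 831.75 and 2245.75), against 3287 bases for all genes at the floor and 4992 bases for the 276 genes of the mirrored rule. Among protein-coding genes, 73 of 442 with transcripts up to 1000 bases were members (16.5%), 127 of 1758 from there to 2000 bases (7.22%), and 6 of 1655 over 6000 bases (0.363%). Over all protein-coding genes, levels in each EMT6-PTR tumor relative to EMT6-P were higher in the longest class than in the shortest. From the shortest to the longest of these classes, the median log2 ratio to EMT6-P went from -0.31 to 0.29 in replicate 1, from -0.68 to 0.02 in replicate 2 and from -0.22 to 0.18 in replicate 3. It was -0.07 in both classes in the metastasis.

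When the median shift of each length class was removed from each library, an alternative chosen after seeing the data, 172 genes met the rule and 121 of them were members. Of the groups above, 5 of 9 DNA replication members, 2 of 6 mitosis members, 3 of 5 members of ribosome biogenesis and 8 of 11 PTIS-DOWN members then still met it, as against 0 of 6 cytosolic ribosomal, 1 of 11 mitochondrial ribosomal, 1 of 5 S100, 2 of 9 actin, 0 of 5 tubulin and 0 of 4 proteasome members. All 10 members with the widest gap still met it, but they were chosen for that gap, so this adds little. Whether library fragment size or RNA integrity moved with length was not tested, since no such measure is among the values used here.

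**Figure D4:**
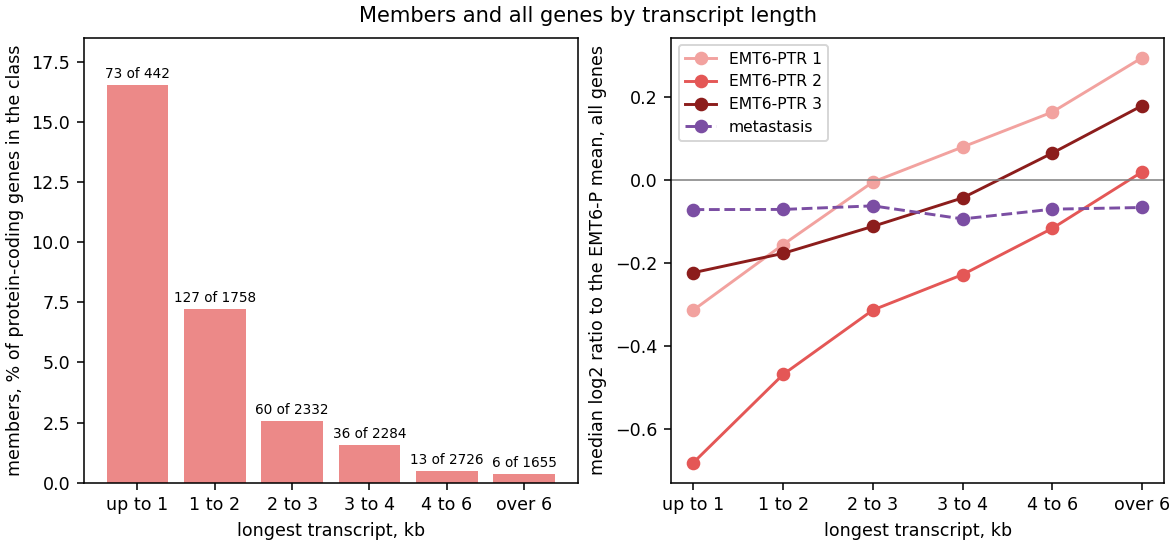
Left, share of protein-coding genes at the CPM floor that are members, by class of longest transcript in kb, with counts above the bars. Right, median log2 ratio of CPM to the EMT6-P mean over all genes of each class in the 3 EMT6-PTR tumors and the metastasis. The share of members went from 16.5% in the shortest class to 0.363% in the longest, and the lines of all 3 EMT6-PTR tumors end higher than they start while that of the metastasis ends level.

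By biotype, 315 members were protein-coding, 52 were pseudogenes and 27 were other noncoding genes. Members were 2.81% of the protein-coding genes at the floor, 8.51% of the 611 pseudogenes and 8.79% of the 307 other genes. Pseudogenes share reads with their parent genes, and 58.1% of the members had a fractional estimated count in at least 1 library, against 41.5% of all genes at the floor. For 9 pseudogene members the symbol names a parent gene in the table, and 2 of these parents, Npm3 and Trmt112, were members too. All 9 parents had a lower mean in EMT6-PTR, from 63.2% (Trmt112) to 80.6% (Rbx1) of EMT6-P. Only Rbx1 had an EMT6-PTR tumor that was not below every EMT6-P tumor. Npm3 stood at 77.3, 71.3 and 70.6 CPM against 67.4, 38.4 and 39.0 CPM and Npm3-ps1 at 7.49, 4.91 and 5.18 CPM against 4.39, 3.04 and 2.68 CPM. The values of pseudogene members are therefore uncertain.

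Members were spread over the chromosomes unevenly. On chromosome 19, 34 of 434 genes at the floor were members (7.83%), among them Cfl1, Eef1g, Gsto1, Coro1b and Rhod. On chromosome 12, 4 of 414 were (0.966%). The median protein-coding gene of chromosome 19 lay at -0.02, -0.43 and -0.21 relative to EMT6-P in EMT6-PTR replicates 1 to 3 and at -0.22 in the metastasis on the log2 scale, and that of chromosome 12 at 0.40, -0.0039 and 0.06. Median transcript lengths were alike, with 3377 bases for chromosome 19 and 3610 bases for chromosome 12. When the median shift of each chromosome was removed, also an alternative chosen after seeing the data, 282 genes met the rule and 246 of them were members.

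The metastasis was set beside the primary tumors as a single library, without a test. It shares the EMT6-P tumors with the rule as its reference. It was below every EMT6-P tumor and at most 2/3 of the EMT6-P mean for 233 of the 394 members (59.1%), where 21.7% of all genes at the floor were. It was above every EMT6-P tumor and at least 1.5 times the mean for 17 members, where 17.5% of all genes at the floor were. The median member stood at 59.2% of the EMT6-P mean, against 94.3% for the median gene at the floor. By position, the metastasis lay within the range of the EMT6-PTR tumors for 208 members, below all of them for 54 and between the groups for 53. It was within the EMT6-P range for 48 and above it for 31 (7.87%). Over all genes at the floor, it was above every EMT6-P tumor for 37.5% and below every one for 46.5%.

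The library of the metastasis held markers of other tissues than the primary tumors did. Lung markers (Sftpc, Sftpb, Sftpa1, Scgb1a1, Ager and Foxj1) summed to 8233 CPM in it, against 4.15 to 23.8 CPM in the primary tumors, red cell markers to 7921 CPM against 30.1 to 332 CPM, and neutrophil markers to 3032 CPM against 25.8 to 57.1 CPM. Markers of endothelium summed to 873 CPM, against 114 to 174 CPM. Their part in the member values of the metastasis was not tested.

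The 5 members highest in the metastasis relative to EMT6-P were Col4a5, Crispld2, Mcoln2, St3gal6 and Ier2. Col4a5 stood at 48.1 CPM in the metastasis, 13.4 times the EMT6-P mean of 3.58 ± 2.19 CPM (SD, n = 3). Crispld2, a secreted protein with cysteine-rich domains, stood at 11.3, 23.1 and 12.1 CPM in EMT6-P, 10.8, 10.4 and 5.00 CPM in EMT6-PTR and 108 CPM in the metastasis. Ier2, an immediate early gene, stood at 73.5, 90.0 and 77.6 CPM, 67.1, 52.5 and 27.5 CPM and 239 CPM. In each of these the metastasis was the highest of the 7 libraries although every EMT6-PTR tumor was below EMT6-P. St3gal6, a sialyltransferase, stood at 15.2, 14.3 and 15.0 CPM in EMT6-P, 10.8, 5.78 and 10.7 CPM in EMT6-PTR and 44.6 CPM in the metastasis. Mcoln2, a mucolipin channel, stood at 4.05, 4.65 and 2.52 CPM, 1.87, 2.35 and 1.59 CPM and 18.3 CPM, and in the metastasis the fatty acid binding protein Fabp5 reached 35.2 CPM from an EMT6-P mean of 12.7 ± 2.24 CPM (SD, n = 3).

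The 5 members lowest in the metastasis were Crabp1, Gm10401, Gm17711, Gm17134 and Dynap. Crabp1, a retinoic acid binding protein on chromosome 9 from 54764748 to 54773110, stood at 31.1, 85.0 and 49.99 CPM in EMT6-P, 17.6, 29.3 and 0.595 CPM in EMT6-PTR and 0 in the metastasis. The EMT6-P tumors differed more among themselves than for most members, and replicate 3 of EMT6-PTR stood far below the other tumors. Gm17711, a pseudogene, stood at 22.4, 23.3 and 22.4 CPM in EMT6-P and 14.9, 11.8 and 9.54 CPM in EMT6-PTR, and Gm10401 at 9.67, 5.92 and 8.57 CPM and 3.51, 2.70 and 5.72 CPM. Crabp1, Gm10401 and Gm17711 had 0 counts in the metastasis, which allows up to 3 counts of its 24592782, for counting error only. Dynap stood at 1.67 CPM there.

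**Figure D5:**
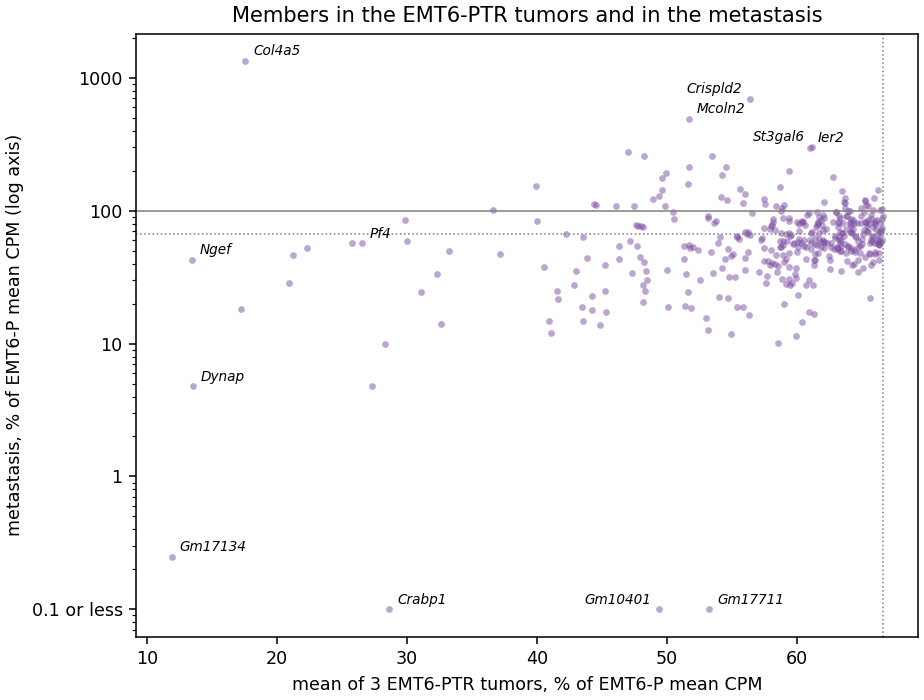
Each point is a member, with the mean of the 3 EMT6-PTR tumors (linear axis) against the metastasis (log axis), both as % of the EMT6-P mean CPM. Dotted lines mark the 2/3 limit, which the rule sets on the horizontal axis alone, and points at 0 are drawn at 0.1. Most points lie below the solid line at 100%, with Col4a5 highest. In the metastasis 31 members (7.87%) were above every EMT6-P tumor, against 37.5% of all genes at the CPM floor.

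The 3 EMT6-PTR tumors did not lower the same members most. The 3 members with the widest step below the next tumor in replicate 3 were Crabp1, Krt16 and Gm11223, with Krt16, a keratin of stratified epithelium, at 4.64, 3.46 and 6.67 CPM in EMT6-P and 3.02, 3.20 and 0.219 CPM in EMT6-PTR. In replicate 2 they were Ica1, Gm49207 and Gm43579, with Ica1, an islet cell autoantigen linked to secretory vesicles, at 8.595, 5.11 and 5.67 CPM against 4.11, 1.13 and 4.44 CPM and 12.4 CPM in the metastasis. In replicate 1 they were Gm47750, Gm20657 and Cysrt1, with Cysrt1 at 5.67, 3.51 and 4.99 CPM against 1.68, 3.33 and 2.26 CPM. Gm11223 stood at 9.30, 8.54 and 0.730 CPM in EMT6-PTR from a mean of 10.1 CPM in EMT6-P, so that replicate 3 alone was far below. Gm43579 stood at 5.87, 2.62 and 7.28 CPM from a mean of 10.4 CPM. Members lowest in replicate 3 had a median transcript of 1654.5 bases, those lowest in replicate 2 one of 1026 bases and the 11 lowest in replicate 1 one of 646 bases.

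Genes close to the limits of the rule had values like those across them. Just inside the 2/3 limit were Ubl5 and Gpx1, with an EMT6-PTR mean of 66.6% and 66.6% of EMT6-P, and just outside were Bloc1s2 and Sdf2l1 with 66.7% each. Ndufaf2 and Raet1e just met the demand for no overlap, with 9.80 CPM in the highest EMT6-PTR tumor against 9.80 CPM in the lowest EMT6-P tumor for Ndufaf2. Gpatch4 and Aifm1 just missed it, with Gpatch4 at 30.1 CPM against 30.1 CPM. At the CPM floor, Gsto2 and S100a7a were inside with EMT6-P means of 3.01 and 3.05 CPM, and 2610203C22Rik and Anks1b outside with 2.99 CPM each.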

How the data were processed

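Libraries of polyadenylated RNA came from 7 samples, namely 3 tumor tissue replicates each of EMT6-P and EMT6-PTR and a single metastasis, and were sequenced with strand kept. The authors checked reads with FastQC 0.11.5, aligned them with STAR 2.6.0a to GRCm38 with GENCODE M16 and estimated counts per gene with RSEM 1.3.1 (versions from the submitters' processing notes). The deposited table holds these estimated counts, before the filtering and upper-quartile normalization named in the methods. RSEM divides reads that fit several similar genes, so counts of gene families are uncertain. Depth is 20430110 to 25213472 estimated counts per library.

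CPM is the estimated count over the column sum, and log2 ratios of CPM used an added 0.1. For the fit, counts were rounded and genes were filtered with filterByExpr. Upper-quartile factors set the library sizes, and edgeR 4.0.16 in R 4.3.3 gave the test (glmQLFit and glmQLFTest, Benjamini-Hochberg adjustment, threshold 0.05). DESeq2 1.42.0 and limma 3.58.1 (voom) were alternatives, beside other scalings, floors and folds, a replicate block, and leaving out each tumor. The fit and the rule were tested on simulated counts. These held no length shift, no gene with a large share of a single library and no tumor apart from its group. The test therefore does not cover these features. Symbols, positions and longest transcripts come from GENCODE M21 on the same assembly, matched by identifier without version for 53360 of 53465 genes. Promoters were not searched for genes of chromosome 18.

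The members and the gene lists were chosen with earlier results of these data known. Named genes are the 10 members with the widest gap, the 10 of highest EMT6-P level, up to 4 per list with at least 3 members, all in the study's lists, the 2 on each side of each limit, the 5 highest and 5 lowest in the metastasis, and 3 per tumor by the step to the next tumor. Other members are named only to complete a count, after their values were seen. Some members and one gene list are not reported here.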

Additional observations from a re-analysis of the deposited data

How the results depend on the processing

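The count of 394 members was 304 to 464 on 4 other scalings and with a floor of 1 or 10 CPM, and 290 of the members met the rule under all 4 other scalings. With the EMT6-PTR mean at most 1/2 of EMT6-P it was 71. After removal of the length shift it was 172, and the cause was not tested. With each tumor left out it was 375 to 1618, the highest without EMT6-PTR replicate 1, and it was 593 when EMT6-P replicate 2 was left out. The cause was not tested. The median log2 fold change of the members was -0.87 to -0.59 with each tumor left out, and its direction was fixed by the choice of members. The members low in the metastasis numbered 211 to 250 in all alternatives, 227 to 236 with an EMT6-P tumor left out. With a replicate block the median was -0.75, and edgeR again called 0 genes in either direction, with 682 lower and 586 higher at an unadjusted p under 0.05. Deviations of tumors with the same number correlated at 0.26, 0.25 and 0.04 across genes. Replicates 1 and 2 correlated best with their own number in both directions and replicate 3 did not, so the numbers were not taken as pairs. Whether replicates 1 and 2 share a batch or pairing was not tested. Of 1138 refitted log2 fold changes of the 88 named members, 14 moved by more than their standard error, and their direction was likewise fixed by the choice of members. Depth limits members near 3 CPM most.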
